A study of Mus musculus with 29 samples.

Results

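The 5 miRNA hairpins that lie opposite the Rtl1 gene in the imprinted Dlk1-Dio3 region of mouse chromosome 12, miR-431, miR-433, miR-127, miR-434 and miR-136, were followed in gonadal white adipose tissue (gWAT). Both arms of each hairpin were taken by name from a list that was chosen with earlier results of these data known. This gave 10 miRNAs with 1 mature and 1 hairpin row each. The small RNA count table has 5355 rows, of which 1571 are mature and 1526 hairpin rows. Small RNA was sequenced from gWAT of 15 diabetes-prone (DP) and 14 diabetes-resistant (DR) female NZO/HIBomDife mice, 1 library per mouse. NZO is an obese inbred strain, and the mice of both groups were fed a high-fat diet and were 10 weeks old when the tissue was taken. Mice were assigned to DP or DR by a risk score for later hyperglycaemia, so the groups differ in phenotype and not by an allele or a treatment. The comparison asks which miRNAs of the fat depot differ before diabetes begins.

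In the Dlk1-Dio3 region the protein-coding genes, among them the retrotransposon-derived gene Rtl1, are active on the paternal chromosome, while the non-coding RNAs and the miRNAs are made from the maternal one. The miRNAs described here are cut from a maternal transcript that runs antisense to Rtl1, so they pair with the Rtl1 mRNA over their whole length, and in mouse they are known to direct its cleavage. The 2 strands of a hairpin stem are called the 5p and the 3p arm, and usually 1 of them is kept in the silencing complex and the other is degraded.

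All 10 miRNAs matched 1 entry each in RefSeq (GRCm38.p6). The mature sequences are shown because the seed, bases 2 to 8 and printed in capitals, decides which mRNAs a miRNA recognises. They are ordered along the plus strand of the chromosome.
mmu-miR-431-5p: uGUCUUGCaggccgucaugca
mmu-miR-431-3p: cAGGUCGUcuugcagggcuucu
mmu-miR-433-5p: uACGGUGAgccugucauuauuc
mmu-miR-433-3p: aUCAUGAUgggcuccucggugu
mmu-miR-127-5p: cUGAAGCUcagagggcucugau
mmu-miR-127-3p: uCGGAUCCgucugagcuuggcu
mmu-miR-434-5p: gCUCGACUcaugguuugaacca
mmu-miR-434-3p: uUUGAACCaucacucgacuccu
mmu-miR-136-5p: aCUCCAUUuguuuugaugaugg
mmu-miR-136-3p: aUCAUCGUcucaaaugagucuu

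The 10 seeds all differ, and none of them occurs in another mouse mature miRNA of the same table. The hairpins lie on the plus strand at chr12:109590447-109590537 (Mir431), chr12:109591715-109591838 (Mir433), chr12:109592846-109592915 (Mir127), chr12:109594506-109594599 (Mir434) and chr12:109595327-109595388 (Mir136), within 4942 bases and with gaps of 727 to 1590 bases. In the GENCODE M21 annotation each one is inside the exon that holds the Rtl1 coding sequence (chr12:109590172-109595403, minus strand, 1744 codons). All 10 mature sequences were complementary to the Rtl1 transcript with 0 mismatches, from codons 6 to 13 for mmu-miR-136-3p, next to the start codon, to codons 1642 to 1649 for mmu-miR-431-5p, near the stop codon. The site of mmu-miR-431-5p is shown as an example of this pairing, in the letters of the Rtl1 coding strand with the match to the seed in capitals.
Rtl1 site of mmu-miR-431-5p: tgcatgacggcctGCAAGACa

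The whole hairpins of miR-434 and miR-136 are shown, with the 5p and then the 3p arm in capitals, because their division of reads between the arms is described below. Whether the sequence bears on that division was not tested.
Mir434 hairpin: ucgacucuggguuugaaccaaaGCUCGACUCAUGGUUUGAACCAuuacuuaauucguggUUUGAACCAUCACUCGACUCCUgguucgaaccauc
Mir136 hairpin: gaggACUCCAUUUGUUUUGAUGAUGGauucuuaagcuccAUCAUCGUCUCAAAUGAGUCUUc

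The arms of miR-434 share a run of 9 bases (UUUGAACCA) and those of miR-431 a run of 10 (GUCUUGCAGG), whereas the arms of miR-136 share no run longer than 4 bases. The Mir136 hairpin is also covered over all of its 62 bases by the hairpin Mir3071 on the other strand, where miR-3071-3p overlaps mmu-miR-136-5p by 20 bases and miR-3071-5p overlaps mmu-miR-136-3p by 19. Whether the counting used the strand is not given in the sources used here.

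The deposited values are read counts. Over all rows they summed to 24416345 to 27513950 per DP library and to 24266300 to 27662601 per DR library. Counts were scaled with TMM factors to CPM (counts scaled to the size of the library, over mature and hairpin rows), and rows with a mean count above 10 were tested, which left 18 of the 20 rows of the Rtl1-antisense miRNAs. The mature row of mmu-miR-127-5p (mean 4.28 reads) and the hairpin row of mmu-miR-431-3p (mean 5.07 reads) were below this minimum. The table has hairpin rows that carry the name of an arm, and how reads were divided between such a row and the mature row of the same name is not given in the sources used here.

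The level of the 5 hairpins in gWAT was very uneven. mmu-miR-127-3p, which is known for a role in the mouse placenta, had 2233 ± 319 CPM in DP (SD, n = 15) and 1957 ± 364 CPM in DR mice (SD, n = 14). It made up 82.1% of the summed mature CPM of the 10 miRNAs and was number 34 of the tested mature rows by mean CPM. The next level was that of mmu-miR-434-3p with 250 ± 67.6 CPM in DP mice and 242 ± 71.4 CPM in DR mice. Among mature rows, below it came mmu-miR-434-5p (84.2 ± 16.8 CPM in DP, 65.2 ± 8.55 CPM in DR), mmu-miR-431-5p (67.8 ± 11.7 and 52.2 ± 5.84 CPM, in the same order) and mmu-miR-433-3p (64.4 ± 11.7 and 57.2 ± 10.5 CPM, likewise). These 3 neighbours overlapped within each group by their SD, and in DR mice mmu-miR-433-3p stood above mmu-miR-431-5p. The hairpin rows had another order, with mmu-miR-431-5p at 184 CPM in DP mice and 158 CPM in DR mice and mmu-miR-434-5p at 45.3 CPM in DP mice and 35.3 CPM in DR mice. mmu-miR-136-5p had 13.9 ± 4.03 CPM in DP mice and 10.5 ± 2.66 CPM in DR mice, and the other arms of miR-136, miR-433 and miR-431 had mean levels under 2 CPM in both groups. All mature members have 21 or 22 bases. How far their other sequence differences affect ligation and amplification, and with them the CPM of one miRNA beside another, was not tested.

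**Figure D1:**
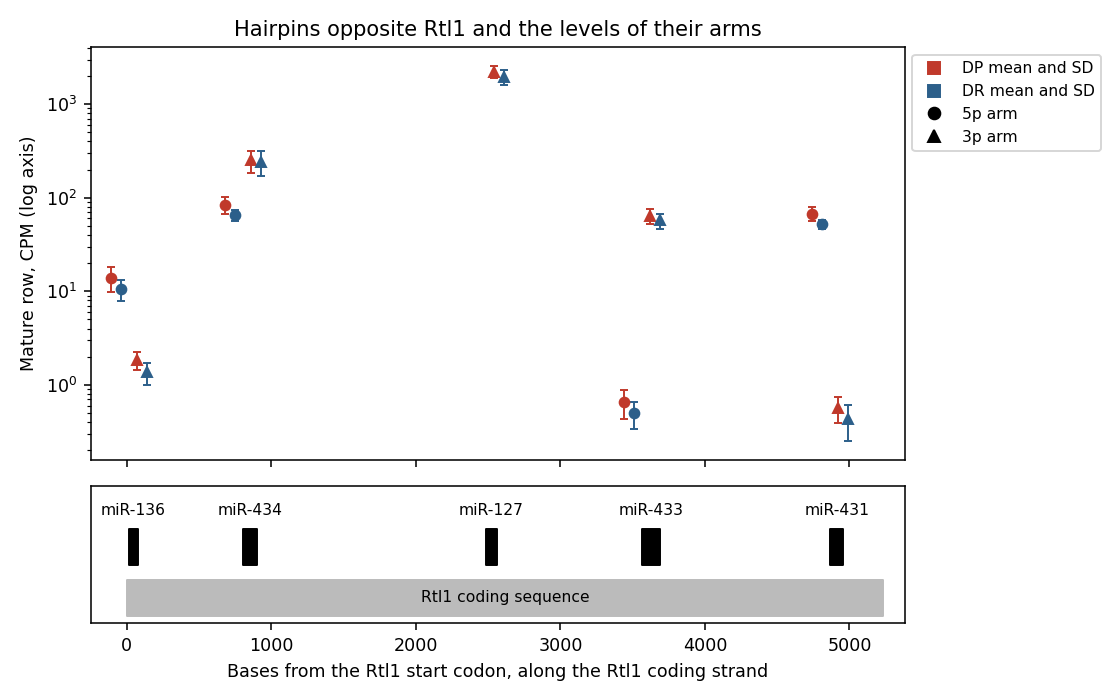
Mean CPM of the mature rows (log axis, bars are the SD over 15 DP and 14 DR libraries), above the hairpins on the Rtl1 coding sequence (points shifted sideways to be legible, 5p left of 3p), with distance in bases from the Rtl1 start codon. The shift does not show the order of the arms, since each 5p arm lies farther from the start codon than its 3p arm. mmu-miR-127-3p, in the middle of the region, stands highest, and the hairpin nearest to the start codon, miR-136, has arms of 13.9 and 1.85 CPM in DP mice.

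The arm that held most of the reads differed from hairpin to hairpin. In the mature rows the 5p arm took 99.2% ± 0.260 (SD) of the reads of miR-431 in DP and 99.2% ± 0.324 in DR mice. It took 87.8% ± 2.65 of those of miR-136 in DP and 88.3% ± 3.14 in DR mice, whereas for miR-433 and miR-127 the 3p arm led, with a 5p share of 1.04% ± 0.398 and 0.00902% ± 0.00514 in DP and 0.884% ± 0.300 and 0.00952% ± 0.00517 in DR mice. For miR-434 both arms were well counted, and the 5p share was 26.1% ± 7.44 in DP and 22.4% ± 6.16 in DR mice, from 16.9% to 40.4% among DP and from 11.2% to 32.6% among DR libraries. The hairpin rows gave the same leading arm for 4 of the 5 hairpins, with a 5p share of 15.4% ± 3.75 in DP and 13.5% ± 2.93 in DR mice for miR-434.

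The exception was miR-136. Its hairpin rows held a mean of 42.1 reads named 5p and 841 reads named 3p, while its mature rows held 275 and 36.1 in the same order, so the 5p share of the hairpin rows was only 4.73% ± 0.840 in DP and 4.80% ± 1.41 in DR mice. The shares of the mature and of the hairpin rows of miR-136 did not overlap, since the mature rows ran from 82.4% to 91.9% and the hairpin rows from 2.59% to 7.01% over all libraries. For mmu-miR-136-3p the hairpin row held 23.3 times as many reads as the mature row. Hairpin rows also held more reads than the mature rows for mmu-miR-431-5p (2.85 times, 3812 against 1339 mean reads), mmu-miR-433-5p (2.75 times) and mmu-miR-127-5p (3.85 times), and fewer for mmu-miR-127-3p (0.570 times) and mmu-miR-433-3p (0.251 times). No difference in the 5p to 3p ratio between DP and DR mice passed for any hairpin, in either kind of row (10 two-sided permutation tests, unadjusted p from 0.138 to 0.996). The largest difference was that of miR-434 in the mature rows, 0.30 on the log2 scale (standard error 0.20, permutation test, adjusted p = 0.772).

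**Figure D2:**
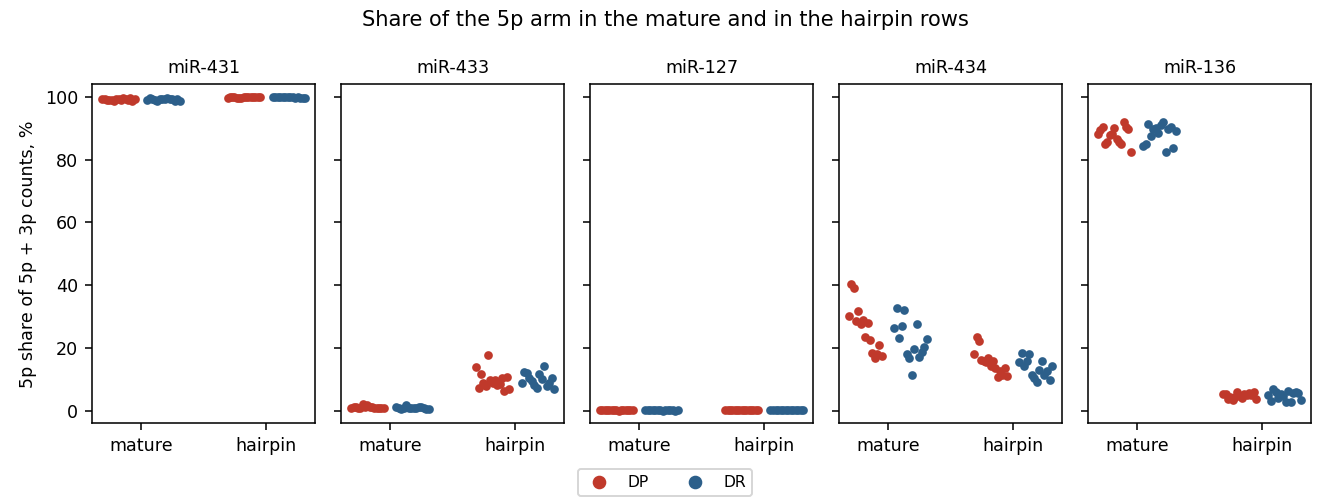
Share of the 5p arm in the reads of both arms (%), 1 point per library, for mature and hairpin rows of the 5 hairpins, with DP left of DR. For miR-136 the mature rows lie above 82% and the hairpin rows below 8% in every library, while the other hairpins have the same leading arm in both kinds of row.

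In DP compared to DR mice, 6 of the 18 rows tested rose and 0 fell (edgeR's quasi-likelihood test, Benjamini-Hochberg adjustment over all 1162 mature and hairpin rows, adjusted p under 0.05). Over all rows tested, 14.0% rose and 11.9% fell. The 6 rows were the mature rows of mmu-miR-431-5p, mmu-miR-434-5p, mmu-miR-136-5p and mmu-miR-136-3p and the hairpin rows of mmu-miR-434-5p and mmu-miR-136-3p, so they came from 3 of the 5 hairpins. At an unadjusted p under 0.05 from the same test, 11 of the 18 were higher, against 20.7% of all rows. All 18 log2 fold changes were above 0, from 0.05 to 0.45, with a median of 0.29, compared to a median of 0.02 and 52.3% above 0 over all rows tested. The median was 0.38 for the 9 mature and 0.26 for the 9 hairpin rows. The hairpins are cut from the transcript antisense to Rtl1, so the 18 rows are not independent of each other, within a hairpin or between hairpins. The tissue was sequenced whole, so more cells of a type and more RNA per cell cannot be told apart.

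mmu-miR-431-5p, which promotes the differentiation of muscle progenitors in mouse, ranged from 47.3 to 88.0 CPM with a median of 67.4 in DP mice and from 42.4 to 60.1 CPM with a median of 51.9 in DR mice. In 11 of 15 DP libraries it was above the highest DR library, and in 14 of 15 above the DR median. Its mature row rose by 0.38 on the log2 scale (standard error 0.08, edgeR quasi-likelihood adjusted p = 0.000572), a fold of 1.30. Its hairpin row had 112 to 233 CPM in DP (median 195) and 116 to 200 CPM in DR mice (median 164), with wide overlap, and did not pass (log2 fold change 0.22, adjusted p = 0.0554 from the same test). The rare other arm, mmu-miR-431-3p, had 3 to 19 reads per library and did not pass (0.38, adjusted p = 0.157).

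Of the arms of miR-434, the less abundant one rose and the more abundant one did not pass. mmu-miR-434-5p ranged from 55.8 to 115 CPM (median 85.8) in DP and from 49.9 to 80.4 CPM (median 64.1) in DR mice, with 8 of 15 DP libraries above the highest DR library. It rose by 0.37 in the mature row (standard error 0.09, edgeR quasi-likelihood adjusted p = 0.00304) and by 0.36 in the hairpin row (standard error 0.09, adjusted p = 0.00392), where DP mice had 30.7 to 59.9 CPM and DR mice 27.7 to 44.7 CPM. mmu-miR-434-3p, the more abundant arm, overlapped between the groups over nearly its whole range, 141 to 354 CPM (median 244) in DP and 137 to 397 CPM (median 240) in DR mice. Its log2 fold change was 0.05 in the mature row (standard error 0.15, edgeR quasi-likelihood adjusted p = 0.846) and 0.13 in the hairpin row (adjusted p = 0.318). The 5p to 3p ratio, which tests whether the arms differed in this, did not pass (0.30 in the mature rows, given with the arms above).

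Both arms of miR-136 rose in the mature rows. mmu-miR-136-3p ranged from 1.35 to 2.92 CPM (median 1.67) in DP and from 0.793 to 2.10 CPM (median 1.35) in DR mice, and all 15 DP libraries were above the DR median. It rested on 30 to 73 reads per DP and 18 to 45 reads per DR library, and rose by 0.45 (standard error 0.13, edgeR quasi-likelihood adjusted p = 0.00987). Its more abundant hairpin row ranged from 30.1 to 63.8 CPM (median 40.3) in DP and from 24.3 to 47.5 CPM (median 33.0) in DR mice and rose by 0.32 (standard error 0.11, adjusted p = 0.0217). mmu-miR-136-5p ranged from 6.96 to 22.0 CPM (median 14.4) in DP and from 6.38 to 15.2 CPM (median 10.8) in DR mice, so that 5 of 15 DP libraries exceeded all DR libraries. It rose by 0.41 (standard error 0.15, adjusted p = 0.0380). Its hairpin row had 24 to 85 reads per DP and 14 to 52 per DR library and did not pass (0.31, adjusted p = 0.169). The 2 calls of miR-136 with the largest adjusted p depended on single libraries. That of the mature mmu-miR-136-5p no longer held in 14 of the 29 fits without 1 library (DP replicates 2, 3, 7, 8, 9, 13 and 14 and DR replicates 2, 7, 8, 10, 11, 13 and 14), with an adjusted p of up to 0.0776 and a log2 fold change of at least 0.35. That of the hairpin row of mmu-miR-136-3p was lost in 6 of 29 (DP replicates 7 and 8 and DR replicates 3, 8, 11 and 13), with an adjusted p of up to 0.0636. The other 4 calls were kept in all 29 such fits.

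**Figure D3:**
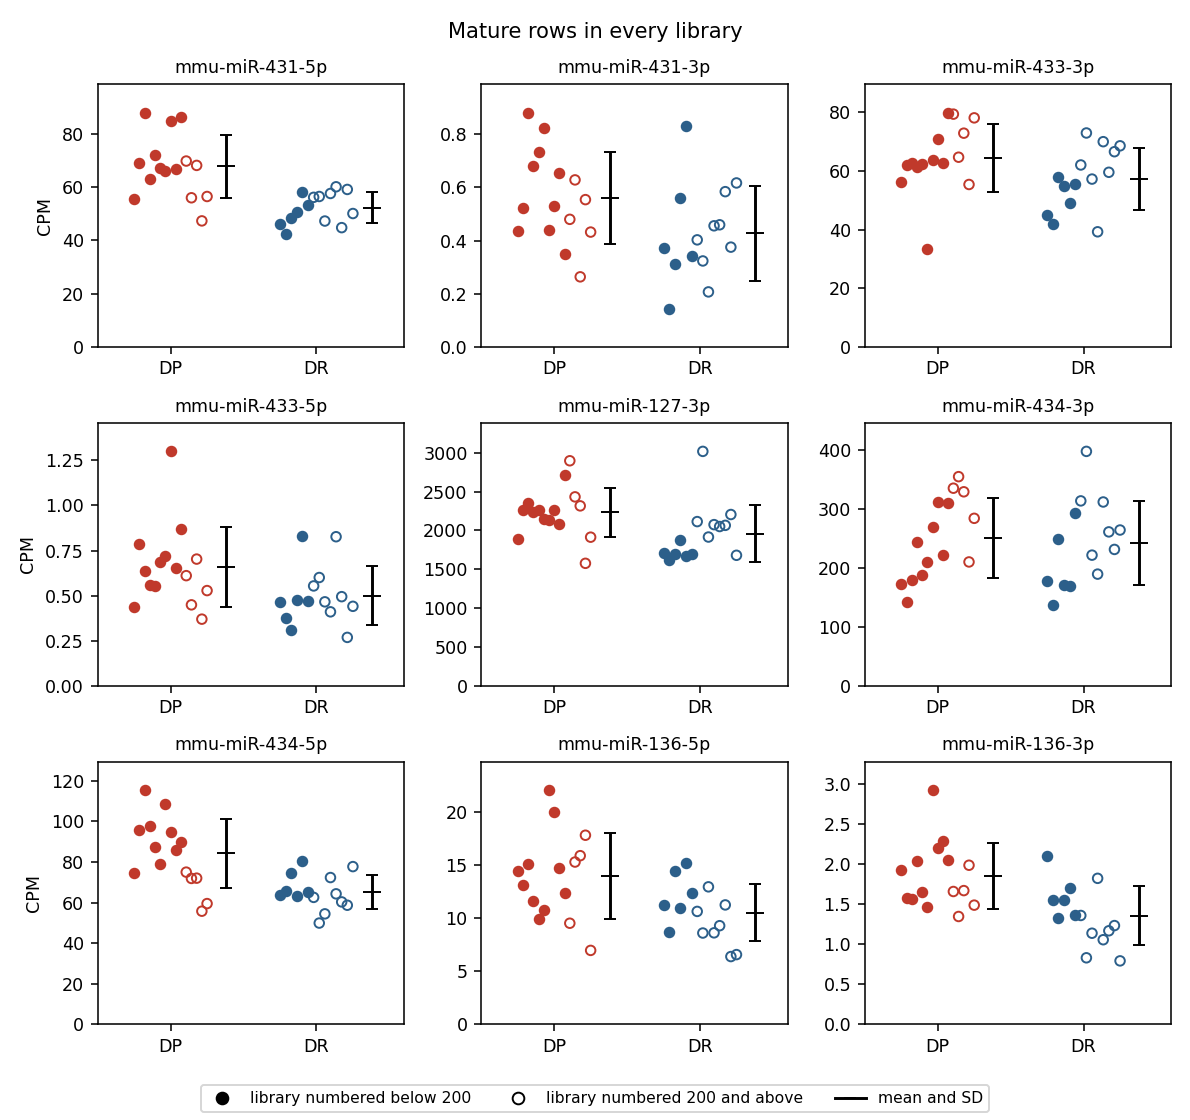
CPM of the 9 mature rows tested, 1 point per library, ordered by library number within DP (left) and DR (right), with the mean and SD at the right of each group. Filled points are libraries numbered below 200 and open points those numbered 200 and above. For mmu-miR-431-5p 11 of 15 DP points lie above all DR points, whereas the points of mmu-miR-434-3p overlap over nearly the whole range.

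The most abundant member, mmu-miR-127-3p, did not pass over all libraries. Its mature row had 1577 to 2898 CPM (median 2257) in DP and 1616 to 3019 CPM (median 1900) in DR mice, and 13 of 15 DP libraries were above the DR median but 0 above the highest DR library. The log2 fold change was 0.19 (standard error 0.08, edgeR quasi-likelihood adjusted p = 0.0948). The highest DR library, replicate 8, decided this: without it the log2 fold change was 0.24 and the adjusted p 0.00999, and without DP replicate 14 they were 0.20 and 0.0454. The hairpin row, with 925 to 1500 CPM in DP mice and 993 to 1470 CPM in DR mice, had a log2 fold change of 0.13 (adjusted p = 0.119) and passed without DR replicate 8 (0.15, adjusted p = 0.0495).

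miR-433 did not pass in any row either. mmu-miR-433-3p had 33.2 to 79.9 CPM (median 62.9) in DP and 39.3 to 73.0 CPM (median 57.6) in DR mice, and its log2 fold change was 0.17 (standard error 0.10, edgeR quasi-likelihood adjusted p = 0.231). The lowest value was that of DP replicate 6, without which the log2 fold change was 0.22 and the adjusted p 0.0488. Its hairpin row, 9.89 to 20.8 CPM in DP mice and 9.11 to 16.9 CPM in DR mice, was closer to the threshold (0.26, adjusted p = 0.0516) and passed in 11 of 29 fits that left out 1 library (DP replicates 1, 3, 4, 6 and 14 and DR replicates 7, 8, 11, 12, 13 and 14). The rare arm mmu-miR-433-5p had log2 fold changes of 0.39 in the mature (adjusted p = 0.0865, 5 to 32 reads per library) and 0.22 in the hairpin row (adjusted p = 0.138). The mature row of mmu-miR-433-5p passed without DR replicate 5 (0.46, adjusted p = 0.0465) or without DR replicate 11 (0.46, adjusted p = 0.0423), and the hairpin row of mmu-miR-431-5p passed without DP replicate 1, 12, 14 or 15 or DR replicate 5 (adjusted p from 0.0139 to 0.0473). All of these values come from edgeR's quasi-likelihood test. The hairpin row of mmu-miR-127-5p, with 5 to 61 reads per library, varied too much to place it (0.26, standard error 0.28, edgeR quasi-likelihood adjusted p = 0.519). DP replicate 7 held the 61 reads, and over the 29 fits without 1 library the log2 fold change ran from 0.03 to 0.35.

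**Figure D4:**
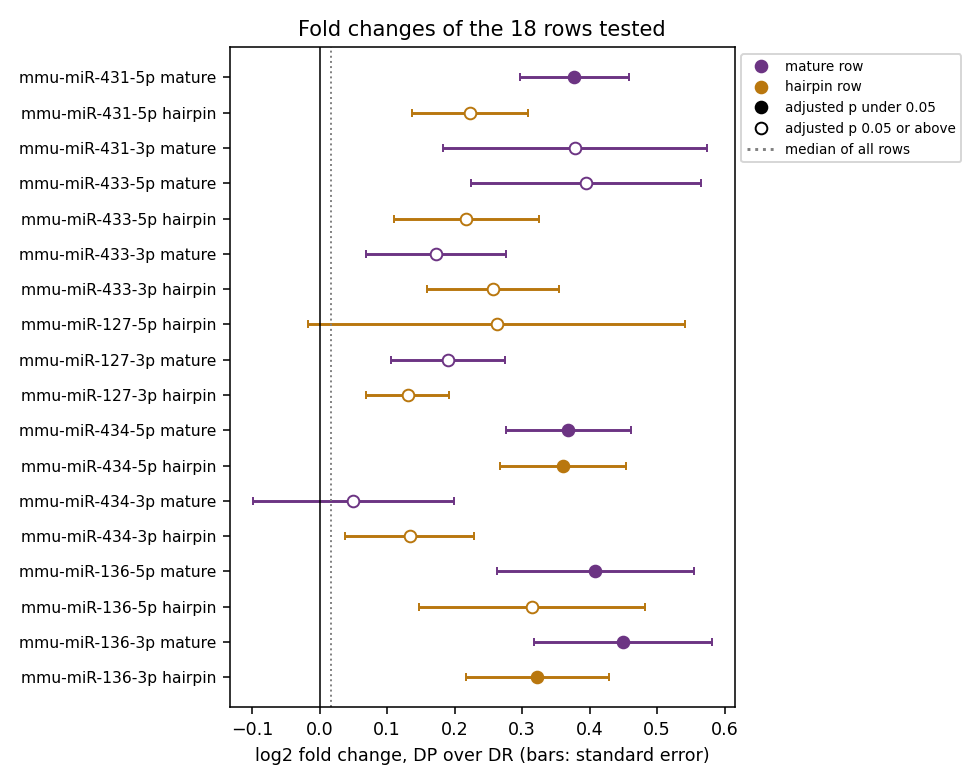
Log2 fold change (DP over DR) with its standard error for the 18 rows tested, mature and hairpin rows of each arm next to each other. Filled points have an adjusted p under 0.05, and the dotted line is the median of all 1162 rows (0.02). All 18 points lie above 0, from 0.05 for the mature mmu-miR-434-3p to 0.45 for the mature mmu-miR-136-3p.

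Library numbers in the labels ran with part of the variation. Numbers below 200 belonged to 10 DP and 6 DR libraries, and 200 and above to 5 DP and 8 DR libraries. The labels do not say what the number stands for, and this division was chosen from earlier results of these data. Among the libraries below 200, all 10 DP mice had more mmu-miR-127-3p (1893 to 2713 CPM, mean 2235) than any of the 6 DR mice (mean 1713, highest 1884 CPM), with a log2 fold change of 0.39 (edgeR's quasi-likelihood test, adjusted p = 0.000411). Among the others the mean was 2228 ± 505 CPM in the 5 DP and 2141 ± 389 CPM in the 8 DR mice, and the log2 fold change was 0.12 (adjusted p = 0.779). For mmu-miR-431-5p it was 0.53 below 200 (adjusted p = 0.00149) and 0.20 from 200 on (adjusted p = 0.365), and for mmu-miR-434-5p 0.44 (adjusted p = 0.00241) and 0.15 (adjusted p = 0.561), both mature rows. The mature rows of miR-136 had the other order, with 0.30 below 200 and 0.53 from 200 on for mmu-miR-136-3p and 0.25 and 0.56 for mmu-miR-136-5p. The hairpin row of mmu-miR-136-3p, which had more reads, did not follow it, with 0.31 below 200 and 0.22 from 200 on, while that of mmu-miR-136-5p had 0.21 and 0.36. None of these rows of miR-136 passed within its libraries. Of the 18 rows, 7 were called higher below 200, where 15.5% of all 1170 rows tested were. From 200 on, where 13 libraries remain, 0 of the 17 rows that could be tested were called, beside 1.49% of all 1141 rows. All log2 fold changes were above 0 in both.

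The difference in effect between the libraries below 200 and those from 200 on was itself tested as an interaction, and 0 of the 18 rows passed (4 at an unadjusted p under 0.05), nor did any of the 1162 rows (72 at an unadjusted p under 0.05, edgeR's quasi-likelihood test). The largest interaction among these 4 was that of the mature mmu-miR-431-5p, -0.39 (p = 0.0173, adjusted p = 0.784). With the division as a term in the fit, 6 rows were called again, 4 of them the same. The mature mmu-miR-136-5p (adjusted p = 0.0605) and the hairpin row of mmu-miR-136-3p (adjusted p = 0.0524) no longer passed, and the mature mmu-miR-127-3p (adjusted p = 0.0316) and the hairpin row of mmu-miR-433-3p (adjusted p = 0.0124) did. The arms of miR-434 moved in opposite ways with the number: mmu-miR-434-3p averaged 224 CPM below 200 and 302 CPM from 200 on in DP mice, and 199 and 273 CPM in DR mice, while mmu-miR-434-5p averaged 92.9 and 66.8 CPM in DP mice and 68.8 and 62.5 CPM in DR mice.

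The ratio of hairpin to mature reads within a library asks whether both kinds of row moved to the same extent, and does not depend on scaling. None of the 10 ratios passed after adjustment over the 10 (two-sided permutation tests, smallest adjusted p = 0.0944). The 2 smallest unadjusted values were those of mmu-miR-433-3p, whose ratio was 0.09 higher in DP on the log2 scale (standard error 0.03, permutation p = 0.0162), and mmu-miR-431-5p, whose ratio was 0.15 lower (standard error 0.06, permutation p = 0.0189) and was under the DR median in 14 of 15 DP mice. Among the libraries below 200 the difference of mmu-miR-431-5p was -0.25 (permutation test, adjusted p = 0.0119) and that of mmu-miR-127-3p was -0.12 (adjusted p = 0.0119). From 200 on they were -0.11 (permutation test, adjusted p = 0.501) and -0.0565 (adjusted p = 0.719).

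Over the 29 libraries, after the mean of each group was removed from log2 CPM, mature and hairpin rows of the same arm ran together for the well-counted arms. Pearson r was 0.95 for mmu-miR-433-3p and mmu-miR-127-3p, 0.94 for mmu-miR-434-5p, 0.89 for mmu-miR-434-3p, 0.76 for mmu-miR-431-5p, 0.72 for mmu-miR-136-5p and 0.70 for mmu-miR-136-3p. It was -0.17 for mmu-miR-433-5p, whose mature row had 5 to 32 reads per library. The leading arms of different hairpins were less alike, with r from -0.26 to 0.64 over the 10 pairs and a median of 0.23, where all pairs of tested mature rows had a median of 0.00067 and a 95th percentile of 0.45. mmu-miR-127-3p, mmu-miR-433-3p and mmu-miR-434-3p had r from 0.44 to 0.64 with each other, and mmu-miR-431-5p had 0.57 with mmu-miR-127-3p, whereas mmu-miR-136-5p had r from -0.26 to -0.03 with the leading arms of the other 4 hairpins. mmu-miR-434-5p followed mmu-miR-431-5p (r = 0.55) and not its own 3p arm (r = -0.29). These correlations are descriptions, since their points share library, depth and scaling. Shifts with the library number, such as those of the arms of miR-434 given above, were not removed from them.

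**Figure D5:**
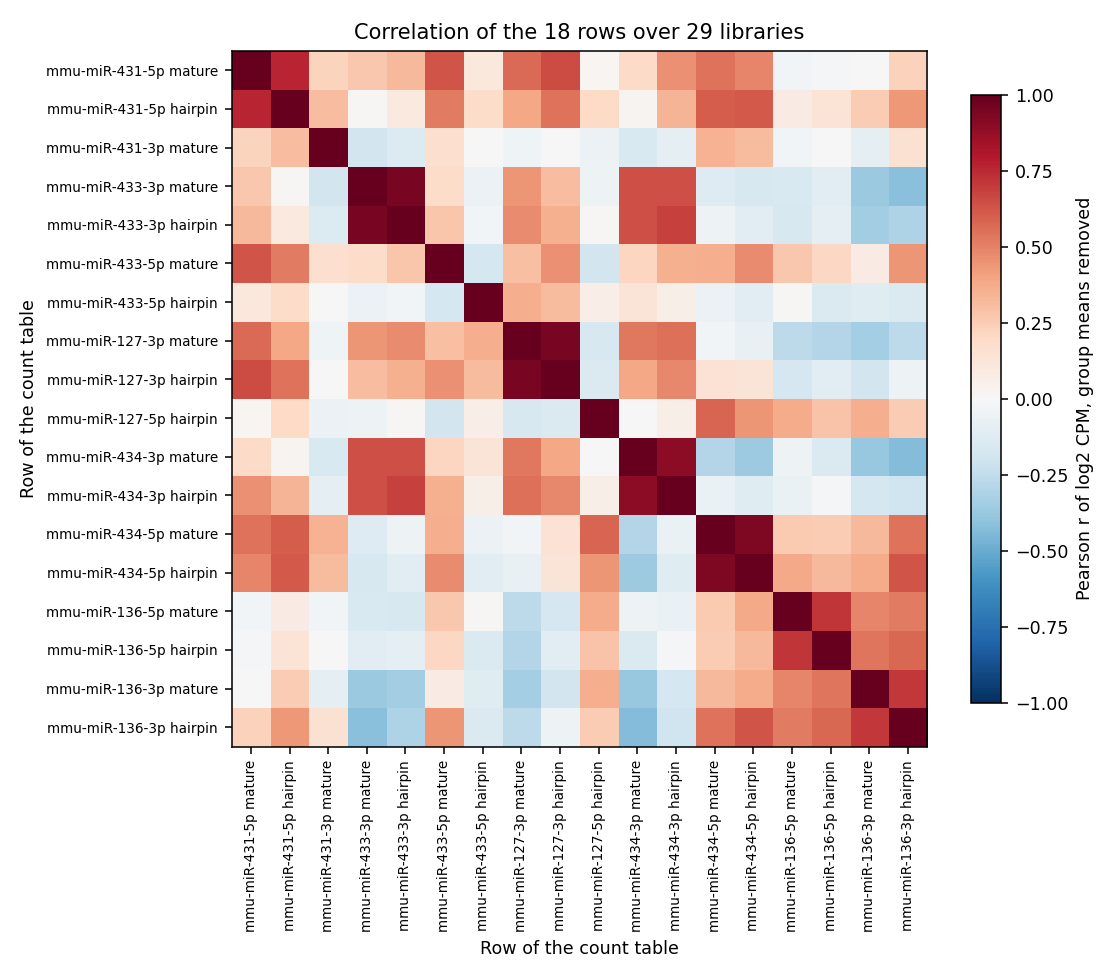
Pearson r of log2 CPM between the 18 rows over 29 libraries, with the mean of each group removed; both axes list the same rows and the colour gives r. Mature and hairpin rows of 1 arm pair up along the diagonal (up to 0.95), and the rows of miR-136 stand apart from those of mmu-miR-433-3p, mmu-miR-127-3p and mmu-miR-434-3p.

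Among the other tested mature rows, the 3 most like each leading arm by the same measure were partly of the same region. For mmu-miR-431-5p they were mmu-miR-411-5p (r = 0.79), mmu-miR-154-5p (0.78) and mmu-miR-134-3p (0.71), all of the miR-379 to miR-410 cluster further downstream. For mmu-miR-433-3p they were mmu-miR-434-3p (0.64), mmu-miR-412-5p (0.64) and mmu-miR-146b-5p (0.63), for mmu-miR-127-3p mmu-miR-485-5p (0.68), mmu-miR-505-5p (0.65) and mmu-miR-7688-5p (0.63), and for mmu-miR-434-3p mmu-miR-410-3p (0.72), mmu-miR-667-3p (0.66) and mmu-miR-425-5p (0.65). mmu-miR-136-5p had no miRNA of the region among its 3, which were mmu-miR-24-2-5p (0.79), the leukocyte miRNA mmu-miR-142a-3p (0.78) and mmu-miR-32-5p (0.74), each over 29 libraries.

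The other miRNAs of the Dlk1-Dio3 region were mostly higher in DP mice too, though most did not pass. Of 62 further mature rows tested there, 15 rose, 0 fell and 47 did not pass, with a median log2 fold change of 0.21 and 58 of 62 above 0. Of all 1162 mature and hairpin rows tested, 14.0% rose and 11.9% fell. At an unadjusted p under 0.05 from the same edgeR test, 25 of the 62 were higher, against 20.7% of all rows. The miR-379 to miR-410 cluster had 13 of 52 rows that rose, with mmu-miR-154-5p at 133 ± 15.5 CPM in DP mice and 118 ± 12.7 CPM in DR mice (0.17, edgeR quasi-likelihood adjusted p = 0.0361), while its most abundant members mmu-miR-411-5p (0.11, adjusted p = 0.210) and mmu-miR-379-5p (0.07, adjusted p = 0.522) did not pass. Near Meg3, the maternally expressed non-coding RNA upstream, 2 of 6 rows rose, led by mmu-miR-337-5p with 110 ± 12.5 CPM in DP mice and 90.9 ± 12.8 CPM in DR mice (0.27, adjusted p = 0.00339). None of the 3 rows tested from the Rian transcript passed (1 at an unadjusted p under 0.05), with mmu-miR-341-3p at 0.45 (adjusted p = 0.143), mmu-miR-370-3p at 0.21 and mmu-miR-370-5p at 0.34. mmu-miR-3071-3p, opposite miR-136, had 3.69 ± 0.973 CPM in DP mice and 3.25 ± 0.610 CPM in DR mice and did not pass (0.18, adjusted p = 0.262). The groups' median log2 fold changes were 0.22 near Meg3, 0.34 for the 3 rows from Rian and 0.20 in the miR-379 to miR-410 cluster, beside 0.38 for the 9 mature rows opposite Rtl1. These 9 include thinly counted arms. The leading arms had 0.38 (mmu-miR-431-5p), 0.17 (mmu-miR-433-3p), 0.19 (mmu-miR-127-3p), 0.05 (mmu-miR-434-3p) and 0.41 (mmu-miR-136-5p). Whether the lists differ from each other was not tested.

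Short lists of miRNAs known from several cell types were taken from the same comparison (edgeR's quasi-likelihood test, adjusted p under 0.05). Of all 1162 mature and hairpin rows tested, 14.0% rose and 11.9% fell. Of 6 myeloid miRNAs 5 rose and 0 fell, with a summed level of 416 to 768 CPM in DP mice and 376 to 524 CPM in DR mice, led by mmu-miR-223-3p (460 ± 78.1 CPM in DP, 351 ± 46.6 CPM in DR) and mmu-miR-142a-3p (83.6 ± 27.5 and 46.0 ± 12.4 CPM, in the same order). Both endothelial miRNAs fell (55439 to 79477 CPM summed in DP, 69416 to 99146 CPM in DR), nearly all of it mmu-miR-126a-3p and the rest mmu-miR-126a-5p. Of 8 mesenchymal miRNAs 2 rose and 2 fell, and 6 of the 8 log2 fold changes were above 0, with a median of 0.30. mmu-miR-143-3p was lower (23977 ± 2820 CPM in DP, 33145 ± 4160 CPM in DR) and mmu-miR-199a-5p higher (1163 ± 246 and 798 ± 132 CPM, likewise). The summed level, 22672 to 31350 CPM in DP mice and 29638 to 43799 CPM in DR mice, was mostly mmu-miR-143-3p and does not stand for the other members. Of 5 adipocyte miRNAs 0 rose and 2 fell, with a summed level of 3866 to 6013 CPM in DP mice and 5456 to 9325 CPM in DR mice. The most abundant, mmu-miR-378a-3p, fell (4046 ± 631 CPM in DP, 5476 ± 962 CPM in DR, log2 fold change -0.44, edgeR quasi-likelihood adjusted p = 0.000238). The next, mmu-miR-103-3p, did not pass (732 ± 263 and 762 ± 89.8 CPM, likewise, -0.06, adjusted p = 0.759).

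Muscle and brain are known to hold abundant miRNAs of this region. Of 4 muscle miRNAs listed 3 could be tested, and these had a summed level of 9.68 to 342 CPM in DP mice and 19.9 to 703 CPM in DR mice, mmu-miR-1a-3p having 32.8 ± 40.3 CPM in DP mice and 59.7 ± 67.5 CPM in DR mice and mmu-miR-206-3p 20.9 ± 46.0 and 57.5 ± 116 CPM. The 3 neuronal miRNAs summed to 5.14 to 9.51 CPM in DP mice and 5.36 to 9.62 CPM in DR mice, with mmu-miR-9-5p and mmu-miR-9-3p the highest. None of these 6 passed (edgeR quasi-likelihood, 0 also at unadjusted p under 0.05), and the fold changes of 5 of them were below 0. Of the 2 ovary miRNAs, 0 had a mean count above 10. The part of any of these cell types in the results for the Rtl1-antisense miRNAs was not tested.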

How the data were processed

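Total RNA of gWAT was extracted and small RNA sequenced on a BGISEQ-500 instrument. The authors used the miRDeep2 pipeline for annotation, per the paper. Bowtie2 and the build mm10 are listed in the submitters' processing notes. The deposited values are unnormalised counts of reads for each annotated small RNA and mouse. No molecular identifiers are mentioned. Replicates are numbered in accession order. Another 4 rows that stand for genome classes rather than an RNA (median 8.39% of a library) were left out.

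Mature and hairpin rows with a mean count above 10 (574 and 588) were scaled by TMM and compared, DP over DR, with edgeR 4.0.16 (R 4.3.3, quasi-likelihood F-test, no covariates, Benjamini-Hochberg adjustment over 1162 rows). Mature and hairpin counts were 20385384 to 23214934 per DP and 20599231 to 23187920 per DR library. Standard errors were taken as the fold change over the root of F. Ratios of arms and of row kinds used counts plus 0.5 and two-sided permutation tests (100000 permutations). Correlations used log2 CPM with a prior count of 2. DESeq2 1.42.0, limma 3.58.1 (voom), other scalings, filters and library subsets were alternatives.

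All 10 members are named, with the 3 most abundant rows of each list of the region, the 3 rows most like each leading arm and the 2 most abundant rows of each list of cell types. Mature rows were used for lists. The members and lists were chosen with earlier results of these data known. The Rian list was added, and a list of miR-3070 and miR-3071 renamed, after the files were seen. Sequences and coordinates are from RefSeq (GRCm38.p6, the assembly that mm10 denotes) and Rtl1 from GENCODE M21.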

Additional observations from a re-analysis of the deposited data

How the results depend on the processing

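Of the rows of the Rtl1-antisense miRNAs, 6 rose in the comparison as reported. The same 6 rose with median-of-ratios scaling and with limma-voom. With the library-number division as a term 6 rose, but 2 calls were lost and 2 others made. With a minimum mean count of 100, 6 of the 12 rows tested rose, among them the hairpin row of mmu-miR-433-3p. With DESeq2 and with the library number as a linear term that row joined the 6, which gave 7. Among the libraries below 200 it was also 7, but 3 calls were lost and 4 others made, among them both rows of mmu-miR-127-3p. Among mature rows alone it was 4. In these settings 13.6% to 17.8% of all rows tested rose. The number was 11 with library totals, where the median of all rows moved to 0.09 and 20.5% of all rows were called higher (238, beside 102 lower) against 14.0% (163, beside 138) as reported, 3 without a filter on low counts, where 4.67% of 3084 rows were, and 0 among the 13 libraries from 200 on. Leaving out 1 library gave 4 to 8. No row fell under any of these settings, and all log2 fold changes kept their direction. The lowest count without 1 library was without DP replicate 7 or 8.

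None of the ratios of arms and of row kinds passed over all libraries, and several changed sign under another setting. With 2 added reads the difference of the 5p to 3p ratio was 0.0172 (miR-431 mature), 0.0316 (miR-431 hairpin) and -0.00066 (miR-136 hairpin), and with at least 10 reads in both terms 0.25 (miR-431 mature) and -0.10 (miR-127 hairpin). Below 200 it was -0.21 (miR-127 hairpin) and -0.12 (miR-136 hairpin), and from 200 on 0.97 (miR-431 hairpin), -0.10 (miR-433 mature), -0.0033 (miR-127 hairpin), -0.0563 (miR-434 mature) and -0.0036 (miR-434 hairpin). The 0.97 rests on the hairpin row of mmu-miR-431-3p, which held a mean of 5.07 reads over all libraries. The hairpin to mature ratio changed sign for mmu-miR-433-5p with at least 10 reads (0.0913), below 200 for mmu-miR-431-3p (0.32), mmu-miR-127-5p (-0.28) and mmu-miR-136-3p (0.0246), and from 200 on for mmu-miR-434-3p (-0.0267) and mmu-miR-434-5p (0.026). Those of mmu-miR-431-5p (-0.25) and mmu-miR-127-3p (-0.12) passed below 200, and were also below 0 over all libraries and from 200 on. The cause was not tested. No paired analysis was made, because the groups are separate mice and the labels give no pairing between them. Arms with under 20 reads per library are limited by depth.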
